A study of Homo sapiens with 6 samples.

Results

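Aldo-keto reductases (AKR) and aldehyde dehydrogenases (ALDH) are the enzymes with which an airway cell disposes of reactive carbonyls. The 10 genes described here are the members of both families that were picked for airway cells by symbol: AKR1B1, AKR1B10, AKR1C1, AKR1C2, AKR1C3, ALDH1A1, ALDH1A3, ALDH3A1, ALDH3A2 and ALDH3B1. They are 10 of the 57736 genes in the deposited count table, 5 from each family, and all 10 passed the filter on low counts. The cells were AALE, a line derived from bronchial basal epithelium of human origin and transformed with SV40/hTERT, which every library shares. Stable pools carried a lentiviral NRG1 overexpression vector in 3 libraries and a lentiviral control vector in 3 libraries, grown in small airway growth medium. NRG1 encodes neuregulin, a ligand of the ERBB receptor tyrosine kinases, and the series asks what its overexpression does to gene expression. The labels give no promoter for the vector, and the cells are selected pools rather than single clones. Whether the libraries of a group are separate cultures is not stated, so the p-values cover variation between libraries that may be only technical.

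Both families act on the same class of substrate in opposite directions. An aldo-keto reductase uses NADPH to reduce an aldehyde or ketone to an alcohol, whereas an aldehyde dehydrogenase uses NAD or NADP to oxidise an aldehyde to an acid. Airway epithelium meets such carbonyls from inhaled smoke and from lipid peroxidation, and several of these genes are textbook targets of NRF2, the transcription factor of the oxidant response. Some members also have hormone-like substrates: the AKR1C enzymes act on steroids and prostaglandins, and the ALDH1A enzymes make retinoic acid from retinal.

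Libraries held between 8612234 and 13207620 expected counts. The overexpressed gene followed the labels: NRG1 was at 6647, 3854 and 3781 CPM (counts scaled to library size with TMM factors, the unit of all levels unless stated) in NRG1 libraries 1 to 3, against 11.6, 7.87 and 12.3 CPM in control libraries 1 to 3. Vector and endogenous transcripts were not separable. All 12 basal cell markers were tested, with TP63 at 169 to 228 CPM in NRG1 libraries and 158 to 226 CPM in controls, and the 12 together summed to 7084 to 8353 CPM in NRG1 libraries and 10369 to 15303 CPM in controls. Against that sum, the lists for secretory, ciliated, fibroblast, leukocyte and endothelial cells each summed to at most 108 CPM in any library. Of single genes in these lists, endothelial CDH5 and T cell CD3E were at 0 in every library and PTPRC of leukocytes had 3 counts in all. Others in the same lists were present: endothelial CLDN5 had 60 counts in all and KDR 47, and leukocyte CD14 was at 1.70 to 6.82 CPM. The libraries control 3 and NRG1 1 were far from the rest of their groups. The root mean square difference in log2 CPM over all genes tested was 0.80 and 0.81 between control 3 and the other controls, against 0.51 between control 1 and control 2; it was 0.81 and 0.80 between NRG1 1 and the other NRG1 libraries, against 0.36 between NRG1 2 and NRG1 3. Libraries NRG1 3 and control 3 also held nearly all counts of the secretoglobin, BPIF and mucin genes. Whether these counts come from the labelled cells or from RNA of other samples was not tested. SCGB1A1, the club cell secretoglobin, had 0, 0 and 221 expected counts in NRG1 1 to 3 and 0, 1 and 31.0 in control 1 to 3, and BPIFB1 had 0, 0 and 173 in NRG1 libraries and 1, 1 and 166 in controls. Results are therefore also given without control 3 and NRG1 1, and without control 3 and NRG1 3.

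AKR1B10, ALDH3A1 and ALDH3B1 had more RNA in each NRG1 library than in any control library, with mean levels 4.64, 3.20 and 2.26 times higher by the fit. No member passed the main test. By the edgeR quasi-likelihood test, Benjamini-Hochberg adjusted over the 15421 genes tested, 0 of 10 members had an adjusted p under 0.05, and over all genes 0.00648% did, which is NRG1 itself. With p under 0.05 before adjustment there were 3 members higher and 0 lower, where 5.08% of all genes were higher and 6.72% lower. The NRG1 and control libraries did not overlap in the same 3 members, all higher, where 9.36% of all genes lay higher without overlap, 10.2% lower and 19.6% in either direction. Again these 3, and 0 lower members, had a fitted difference of at least 2-fold, against 2.89% of all genes higher and 3.96% lower. DESeq2 called these 3 members, all higher, where it called 1.36% of all genes, 0.597% higher and 0.759% lower. The median log2 fold change of the 10 members was 0.27, against 0.00034 over all genes tested.

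**Figure D1:**
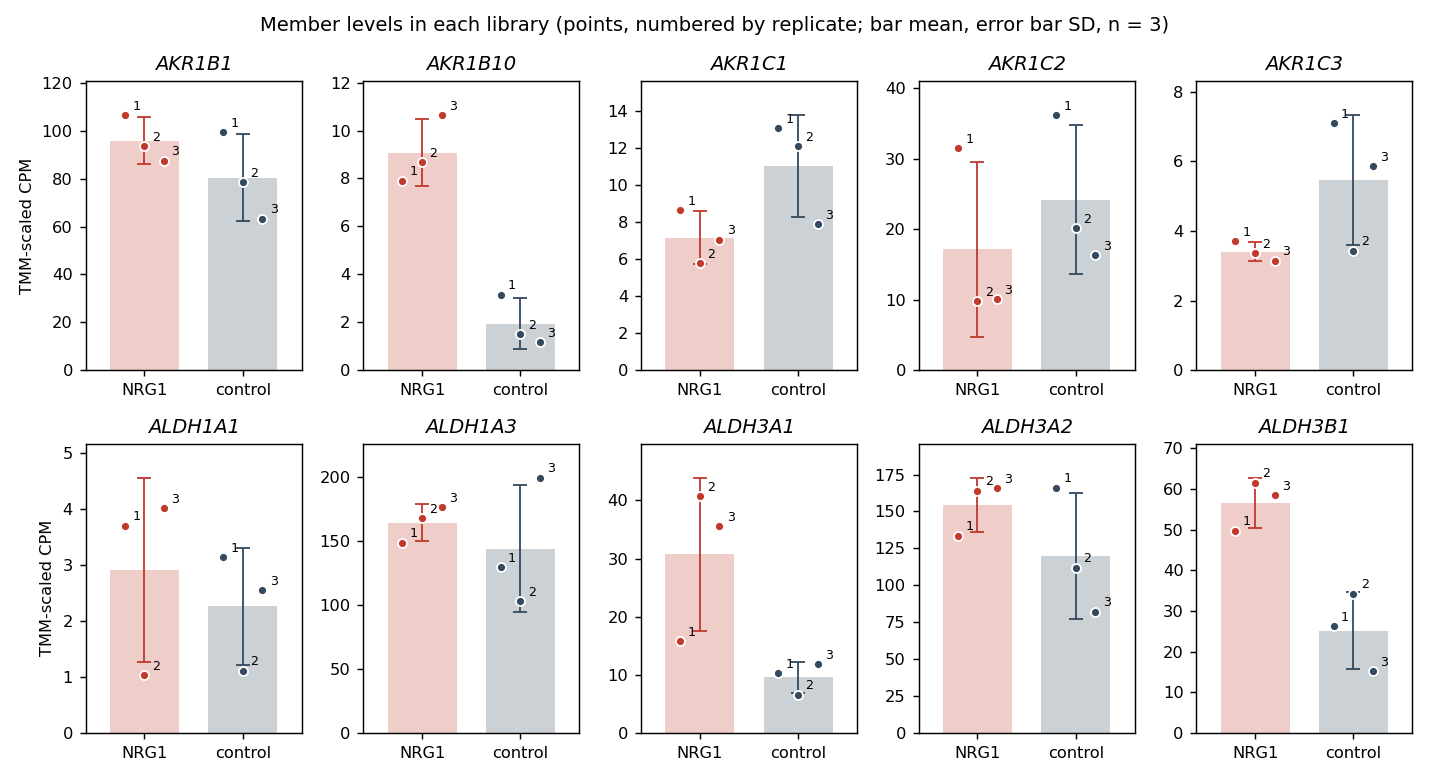
Level of each member in every library, in TMM-scaled CPM on axes that start at 0, with points numbered by replicate, bars at the mean and error bars of 1 SD (n = 3 per group, NRG1 left and control right). The groups do not overlap in AKR1B10, ALDH3A1 and ALDH3B1, and overlap in the other 7 genes.

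To set levels side by side between genes, CPM was divided by coding length in kilobases. On that scale ALDH1A3 (107 ± 9.33 in NRG1 and 93.5 ± 32.3 in control), ALDH3A2 (106 ± 12.5 in NRG1 and 82.3 ± 29.3 in control) and AKR1B1 (101 ± 10.2 in NRG1 and 84.6 ± 19.1 in control) formed the top group, and their libraries overlapped one another (SD, n = 3 each). In NRG1 libraries ALDH3B1 came next at 40.2 ± 4.37 CPM per coding kilobase, followed by ALDH3A1 at 22.6 ± 9.66, AKR1C2 at 17.6 ± 12.8, AKR1B10 at 9.55 ± 1.48 and AKR1C1 at 7.37 ± 1.47. Of these neighbours, ALDH3B1 and ALDH3A1 did not overlap, and each later pair did. In control libraries the same genes stood in another order: AKR1C2 at 24.9 ± 10.9, ALDH3B1 at 17.9 ± 6.81, AKR1C1 at 11.3 ± 2.84 and ALDH3A1 at 7.02 ± 1.99, with each neighbouring pair overlapping. AKR1C3 was at 3.50 ± 0.291 in NRG1 and 5.62 ± 1.92 in control, and ALDH1A1 was lowest in both groups, at 1.94 ± 1.09 in NRG1 and 1.51 ± 0.694 in control. AKR1B10 was at 2.04 ± 1.11 in control, overlapping ALDH1A1. Divided by all exon bases of the gene instead, the same 3 genes were at the top, with AKR1B1 at 26.2 in NRG1 above ALDH3A2 at 23.9, and ALDH1A1, at 1.02 in NRG1, lay above AKR1C1 at 0.818 and AKR1C3 at 0.752 there.

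The AKR1B genes are the aldose reductase branch. AKR1B1 (ENSG00000085662, chromosome 7), aldose reductase, turns glucose into sorbitol and also reduces lipid aldehydes. Its level was 107, 93.6 and 87.6 CPM in NRG1 1 to 3 and 99.5, 78.5 and 63.3 CPM in control 1 to 3. The groups overlapped, and the log2 fold change of 0.25 (SE 0.20) had an edgeR adjusted p of 0.612. AKR1B10 (ENSG00000198074, chromosome 7), which reduces retinal and unsaturated aldehydes and is known for its increase in squamous and smoking-related lung cancers, was at 7.91, 8.69 and 10.6 CPM in NRG1 1 to 3 and at 3.14, 1.51 and 1.16 CPM in control 1 to 3. The 3 NRG1 libraries lay close together and above the highest control, at 9.08 ± 1.40 CPM in NRG1 against 1.94 ± 1.06 CPM in control (SD, n = 3 each). These levels rest on 63.8 to 98.3 expected counts in NRG1 libraries and 14.9 to 39.3 in controls. The log2 fold change was 2.21 (SE 0.40; adjusted p 0.192 by edgeR and 0.000586 by DESeq2).

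Reads cannot always tell AKR1B10 from AKR1B15, its neighbouring copy: 28.4% of the 50-base windows of its coding sequence occur in another gene, most often in AKR1B15. Here and below, such windows were sought only in genes whose symbols begin with AKR1, AKR7 or ALDH. The longest stretch that both share, bases 236 to 351 of the AKR1B10 coding sequence in GENCODE 29, shows how far AKR1B1 has drifted from it. Capitals mark the 32 of 116 bases at which AKR1B1 differs from AKR1B10.
AKR1B10: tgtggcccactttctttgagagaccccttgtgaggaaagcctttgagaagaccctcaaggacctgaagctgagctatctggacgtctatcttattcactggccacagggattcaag
AKR1B1: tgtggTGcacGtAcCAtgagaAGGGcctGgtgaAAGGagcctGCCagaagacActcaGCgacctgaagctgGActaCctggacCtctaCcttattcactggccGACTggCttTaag
Reads from such a stretch separate AKR1B10 from AKR1B1 but not from AKR1B15. The authors' counting put 13.6 expected counts in AKR1B15 over all 6 libraries, and with both genes summed the log2 fold change was 2.17 (SE 0.40) and the edgeR adjusted p 0.198. The ratio of AKR1B10 to AKR1B1 within a library does not depend on library scaling. It was -3.75, -3.42 and -3.03 on the log2 scale in NRG1 1 to 3 and -4.96, -5.66 and -5.73 in control 1 to 3. The groups did not overlap and differed by 2.05, with p = 0.1 in a two-sided exact permutation test, the smallest that 3 against 3 libraries allow (0.5 after Benjamini-Hochberg adjustment over the 5 ratios tested).

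**Figure D2:**
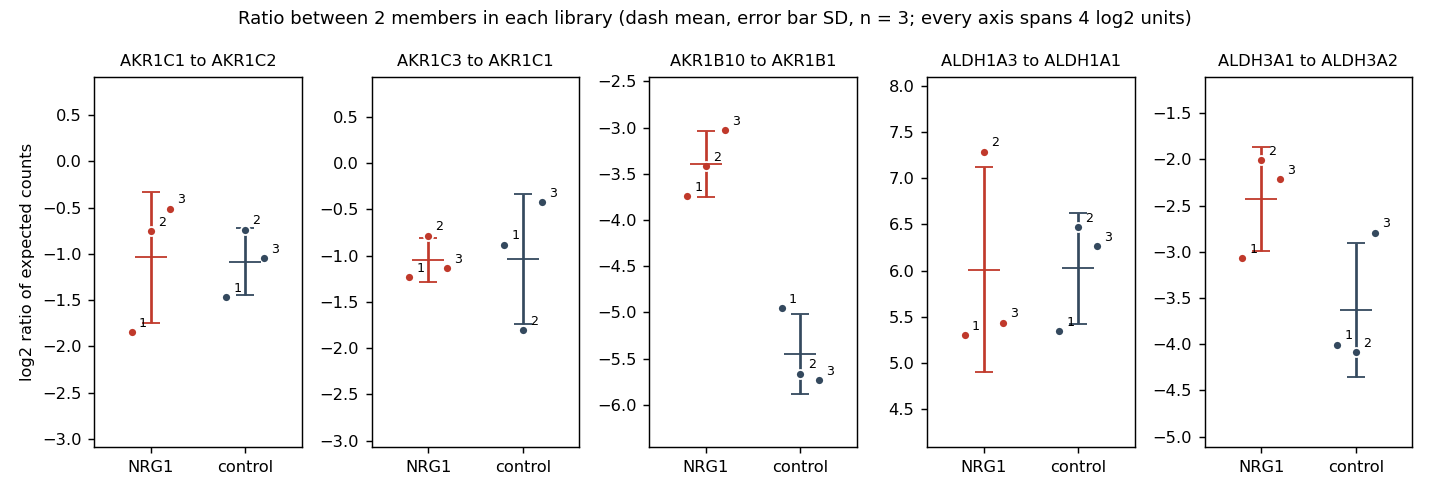
Log2 ratio of expected counts between pairs of members in every library, with dashes at the mean and error bars of 1 SD (n = 3 per group, NRG1 left and control right). The AKR1B10 to AKR1B1 ratio separates the groups, at -3.40 ± 0.36 in NRG1 against -5.45 ± 0.43 in control, and the other 4 ratios overlap.

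The AKR1C genes, side by side on chromosome 10, encode hydroxysteroid dehydrogenases. AKR1C1 (ENSG00000187134) inactivates progesterone, AKR1C2 (ENSG00000151632) reduces dihydrotestosterone, and AKR1C3 (ENSG00000196139) makes testosterone and prostaglandin F. AKR1C1 was at 8.65, 5.79 and 7.06 CPM in NRG1 1 to 3 and at 13.1, 12.1 and 7.87 CPM in control 1 to 3, a log2 fold change of -0.62 (SE 0.31; edgeR adjusted p 0.454). Control 3 was the lowest control and lay within the NRG1 range. AKR1C2 was at 31.5, 9.81 and 10.1 CPM in NRG1 libraries and at 36.2, 20.2 and 16.3 CPM in controls, with a log2 fold change of -0.52 (SE 0.50; edgeR adjusted p 0.683). Here NRG1 1 lay between control 2 and control 1, while NRG1 2 and NRG1 3 lay below every control. AKR1C3 was at 3.71, 3.36 and 3.15 CPM in NRG1 libraries and at 7.09, 3.43 and 5.87 CPM in controls, a log2 fold change of -0.70 (SE 0.36; edgeR adjusted p 0.464). Its groups overlapped only through control 2, and it rested on 29.4 to 35.7 expected counts in NRG1 libraries and 33.9 to 87.8 in controls.

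How counts fall among the 3 AKR1C genes depends on few bases. The coding sequences of AKR1C1 and AKR1C2 differ at 19 of 972 positions, 98.0% identity, and 54.5% of the 50-base windows of AKR1C1 and 57.2% of those of AKR1C2 occur in another gene. AKR1C3 is 91.7% identical to AKR1C1, and 23.0% of its windows occur in another gene. The 3′ end of the coding sequence, bases 784 to 972, is the longest run in which AKR1C1 and AKR1C2 are letter for letter the same, so the first line stands for both. Capitals mark the 18 bases at which AKR1C3 differs from AKR1C1.
AKR1C1: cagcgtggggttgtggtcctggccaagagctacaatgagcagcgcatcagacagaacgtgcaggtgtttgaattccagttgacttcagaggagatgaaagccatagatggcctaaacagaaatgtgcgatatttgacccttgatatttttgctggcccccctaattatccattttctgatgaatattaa
AKR1C3: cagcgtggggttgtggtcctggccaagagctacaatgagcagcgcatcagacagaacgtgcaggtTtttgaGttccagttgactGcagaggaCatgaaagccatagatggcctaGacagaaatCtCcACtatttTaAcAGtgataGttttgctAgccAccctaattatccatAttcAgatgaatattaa
A read inside this run cannot separate AKR1C1 from AKR1C2. It separates AKR1C3 from both others only where it crosses a capital, and the first part of the run holds none. Near the start, bases 43 to 162 hold the densest differences between AKR1C1 and AKR1C2, 10 in all. AKR1C3 differs from AKR1C1 at 13 bases there, and capitals again mark the differences from AKR1C1.
AKR1C1: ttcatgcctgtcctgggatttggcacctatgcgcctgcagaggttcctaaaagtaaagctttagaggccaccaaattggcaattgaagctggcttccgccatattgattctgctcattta
AKR1C2: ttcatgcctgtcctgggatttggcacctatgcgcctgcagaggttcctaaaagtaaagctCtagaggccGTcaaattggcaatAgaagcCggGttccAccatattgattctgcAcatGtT
AKR1C3: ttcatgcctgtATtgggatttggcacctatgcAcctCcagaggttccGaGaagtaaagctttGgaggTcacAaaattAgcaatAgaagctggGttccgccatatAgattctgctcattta
Within the coding sequence, only reads that cross one of the 19 differing bases, 10 of them in this stretch, separate AKR1C1 from AKR1C2. The single-gene values are therefore uncertain and their sum is firmer.

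Summed over AKR1C1, AKR1C2, AKR1C3 and AKR1C4, a liver gene with 1.04 expected counts in all, the level was 43.9, 19.0 and 20.4 CPM in NRG1 1 to 3 and 56.3, 35.7 and 30.0 CPM in control 1 to 3. NRG1 2 and NRG1 3 lay below every control and NRG1 1 lay above 2 of the 3. The log2 fold change was -0.56 (SE 0.38), with an edgeR adjusted p of 0.562. AKR1C2 took the largest share of this sum in every library, 71.8%, 51.5% and 49.6% in NRG1 1 to 3 and 64.2%, 56.6% and 54.3% in control 1 to 3. AKR1C1 took 19.8% to 34.7% in NRG1 libraries and 23.2% to 33.8% in controls, and AKR1C3 took 8.35% to 17.6% in NRG1 libraries and 9.57% to 19.5% in controls. The log2 ratio of AKR1C1 to AKR1C2 was -1.04 ± 0.71 in NRG1 and -1.08 ± 0.36 in control libraries, and that of AKR1C3 to AKR1C1 was -1.05 ± 0.24 in NRG1 and -1.04 ± 0.71 in control libraries (SD, n = 3 each). Both differences were smaller than the spread between libraries, with p = 1 in two-sided exact permutation tests.

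The promoters of these neighbours also resemble each other. They are shown because the 3 genes had negative fold changes, though the groups overlapped in each and the genes share reads. Whether the likeness of the promoters bears on the fold changes was not tested. In the RefSeq windows (GRCh38.p14, 250 bases before to 50 after the start), the AKR1C2 window matched that of AKR1C1 in 288 of 296 aligned positions, and the window of the first AKR1C3 start matched it in 233 of 304. The 250 bases upstream of AKR1C1 (chr10:4963165-4963414, plus strand) and of AKR1C3 (chr10:5048531-5048780, plus strand) follow. Where the windows overlap, capitals mark the 53 AKR1C3 bases that do not align to the same base of AKR1C1. The first bases of the AKR1C3 line lie beyond the AKR1C1 window and are in lower case although they align to no base.
AKR1C1: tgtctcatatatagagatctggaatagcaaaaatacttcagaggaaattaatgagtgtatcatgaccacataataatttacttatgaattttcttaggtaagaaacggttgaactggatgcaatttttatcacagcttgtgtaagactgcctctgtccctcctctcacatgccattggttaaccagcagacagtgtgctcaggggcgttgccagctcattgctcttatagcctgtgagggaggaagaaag
AKR1C3: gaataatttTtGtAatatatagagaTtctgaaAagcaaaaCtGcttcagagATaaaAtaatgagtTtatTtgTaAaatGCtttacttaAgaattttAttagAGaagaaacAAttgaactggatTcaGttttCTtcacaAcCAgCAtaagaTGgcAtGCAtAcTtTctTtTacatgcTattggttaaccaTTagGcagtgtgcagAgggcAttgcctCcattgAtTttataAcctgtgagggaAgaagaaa
The core of the antioxidant response element to which NRF2 binds, TGACNNNGC, was searched on both strands. It occurred in 0 of the 12 windows of the 8 members matched by symbol (RefSeq; AKR1B10 and ALDH3A1 were not matched), where 13.3% of all 35116 windows hold it. This says only that these letters are not in these windows.

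ALDH1A1 and ALDH1A3 oxidise retinal to retinoic acid and are used as markers of progenitor-like cells in many epithelia. ALDH1A3 (ENSG00000184254, chromosome 15) was among the most abundant members, at 148, 168 and 177 CPM in NRG1 1 to 3 and at 129, 103 and 199 CPM in control 1 to 3. Control 3 was the highest of all libraries and the other controls were the lowest, so the NRG1 values lay inside the control range. The log2 fold change was 0.19 (SE 0.24), with an edgeR adjusted p of 0.756. An antisense gene, ALDH1A3-AS1, had counts equal to 3.28% to 8.28% of those of ALDH1A3, and because the TruSeq RNA v2 kit does not mark strand, reads of the overlap cannot be assigned to one of them. ALDH1A1 (ENSG00000165092, chromosome 9) was at 3.71, 1.03 and 4.02 CPM in NRG1 libraries and at 3.14, 1.11 and 2.55 CPM in controls. It rested on 11 to 39 expected counts per library, its lowest library in each group was number 2, and a log2 fold change of 0.29 (SE 0.56; edgeR adjusted p 0.848) was not distinguishable from 0 at this depth. Without NRG1 3, the library with the most secretoglobin counts, the ALDH1A1 log2 fold change was -0.041. The log2 ratio of ALDH1A3 to ALDH1A1 was 6.01 ± 1.11 in NRG1 and 6.03 ± 0.60 in control libraries (SD, n = 3 each; two-sided exact permutation p = 0.9).

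The ALDH3 enzymes oxidise medium- and long-chain and aromatic aldehydes. ALDH3A1 (ENSG00000108602), abundant in cornea and inducible in airway cells by smoke constituents, was at 15.8, 40.7 and 35.6 CPM in NRG1 1 to 3 and at 10.3, 6.56 and 11.8 CPM in control 1 to 3. NRG1 2 and NRG1 3 stood well above every control, and NRG1 1 lay only slightly above the highest. The means were 30.7 ± 13.2 CPM in NRG1 and 9.56 ± 2.71 CPM in control (SD, n = 3 each), and the log2 fold change of 1.68 (SE 0.39) came with adjusted p-values of 0.268 by edgeR and 0.00585 by DESeq2. ALDH3B1 (ENSG00000006534, chromosome 11), which acts on aldehydes from membrane lipids, was at 49.7, 61.6 and 58.4 CPM in NRG1 libraries and at 26.2, 34.2 and 15.1 CPM in controls. The NRG1 libraries lay close together above all controls, at 56.6 ± 6.15 CPM in NRG1 against 25.2 ± 9.58 CPM in control (SD, n = 3 each). Its log2 fold change was 1.17 (SE 0.29; adjusted p 0.307 by edgeR and 0.0270 by DESeq2). ALDH3A2 (ENSG00000072210, chromosome 17), the fatty aldehyde dehydrogenase lost in Sjögren-Larsson syndrome, was at 134, 164 and 166 CPM in NRG1 libraries and at 166, 112 and 82.0 CPM in controls. Control 1 was as high as the highest NRG1 library, and the log2 fold change was 0.36 (SE 0.25; edgeR adjusted p 0.574).

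Unlike those of the AKR1C genes, the coding sequences of the ALDH members are easily told apart within the families searched. Of their 50-base windows, 2.58% of those of ALDH3B1 recur there, all in ALDH3B2, and none of those of the other 4. Copies under other symbols were not searched. The untranslated parts of the members were not included. ALDH3B2, the near copy that acts at lipid droplets in mouse, was at 3.71, 21.5 and 17.7 CPM in NRG1 1 to 3 and at 4.03, 5.35 and 4.25 CPM in control 1 to 3 (log2 fold change 1.68, SE 0.56; edgeR adjusted p 0.358). As for ALDH3A1, NRG1 2 and NRG1 3 were high, but here NRG1 1 was below every control. Summed with ALDH3B1, the log2 fold change was 1.26 (SE 0.29; edgeR adjusted p 0.266). The log2 ratio of ALDH3A1 to ALDH3A2 was -3.07, -2.01 and -2.22 in NRG1 libraries and -4.00, -4.08 and -2.79 in controls. Its groups overlapped through NRG1 1 and control 3, and the difference of 1.19 had p = 0.2 in a two-sided exact permutation test.

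Without control 3 and NRG1 1, the most distant libraries, edgeR called 6 of the 10 members, where it called 9.82% of all genes. AKR1B10 (log2 fold change 2.00, SE 0.34; adjusted p 0.0143), ALDH3A1 (2.16, SE 0.22; 0.00377), ALDH3B1 (0.99, SE 0.15; 0.0111) and ALDH1A3 (0.57, SE 0.13; 0.0369) were the 4 higher members, against 5.04% of all genes. AKR1C1 (-0.98, SE 0.21; 0.0290) and AKR1C2 (-1.51, SE 0.28; 0.0189) were the 2 lower ones, against 4.79% of all genes, and the summed AKR1C genes had a log2 fold change of -1.23 (adjusted p 0.0171). Removing libraries for their distance lowers the spread, so these p-values are too small by an unknown amount. Without control 3 and NRG1 3 instead, edgeR called 0 members (at an unadjusted p under 0.05, 3 higher, against 1.88% of all genes, and 1 lower, AKR1C1, against 2.23%) and, over all genes, again 0.00648%. AKR1B10, ALDH3A1 and ALDH3B1 then had log2 fold changes of 1.80, 1.74 and 0.88, each with an edgeR adjusted p of 0.998. AKR1C2 was at -0.47 there.

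**Figure D3:**
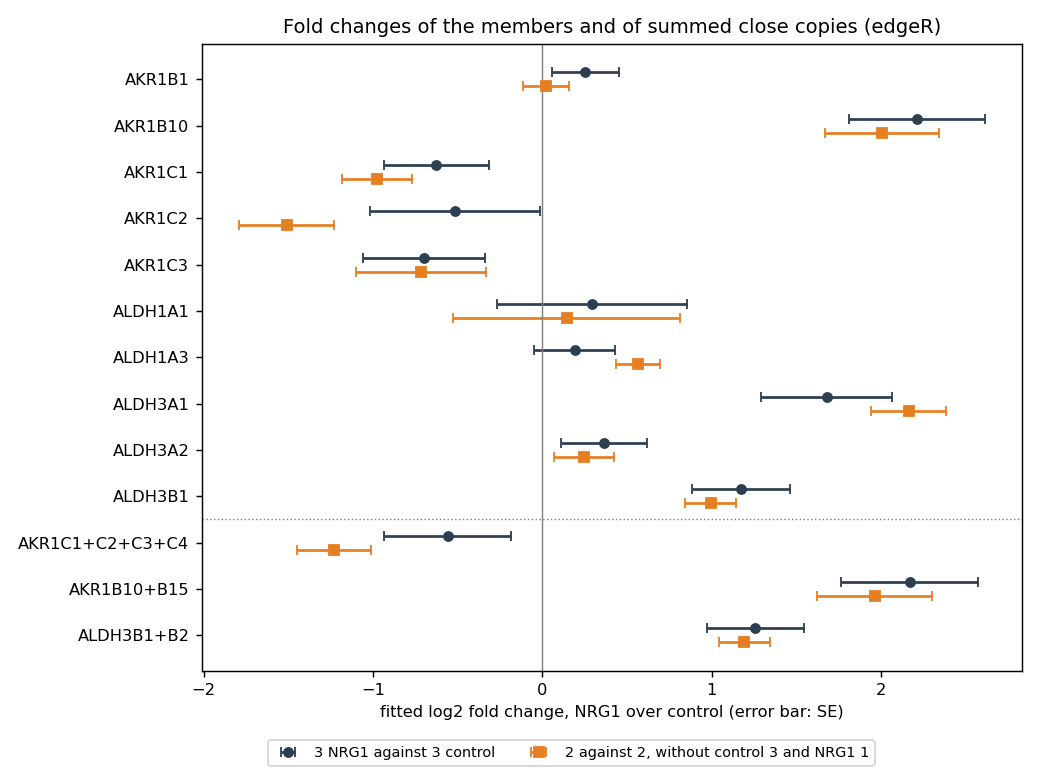
Fitted log2 fold change of NRG1 over control for each member and for 3 sums of close copies, with error bars of 1 SE, in all 6 libraries (circles) and without control 3 and NRG1 1 (squares). AKR1B10, ALDH3A1 and ALDH3B1 lie to the right of 0 in both, and AKR1C2 is at -0.52 in all 6 libraries and at -1.51 without those 2.

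Cell type markers, those of basal cells included, also differed between these libraries, though edgeR called 0 of them. Of the 12 basal markers, 9 had a log2 fold change below 0 and 3 above, with a median of -0.49. At an unadjusted edgeR p under 0.05, 6 were lower and 1 higher, against 6.72% and 5.08% of all genes. DESeq2 called KRT17 (log2 fold change -1.0, adjusted p 2.05e-06) and KRT14 (-2.45, 0.000788) lower and KRT15 (2.30, 0.00773) higher. KRT15 overlapped between the groups: NRG1 1 was at 13.4 CPM, within the control range of 7.49 to 16.2 CPM. Among 12 secretory markers 2 were tested: WFDC2 was at 6.55, 29.7 and 25.8 CPM in NRG1 1 to 3 and at 3.06, 1.92 and 4.40 CPM in control 1 to 3, and LCN2 was at 55.0, 16.1 and 21.1 CPM in NRG1 1 to 3 and at 2.58, 8.28 and 5.33 CPM in control 1 to 3. DESeq2 called both. Neither overlapped between groups, SCGB3A2 was at 0 in every library, and the list summed to 45.8 to 108 CPM in NRG1 libraries and 6.13 to 39.3 CPM in controls. Among 10 fibroblast markers 3 were tested, of which DESeq2 called DCN lower (log2 fold change -1.58; adjusted p 0.0115). COL1A1 was at 11.1, 23.5 and 21.1 CPM in NRG1 1 to 3 and at 48.2, 26.4 and 28.1 CPM in control 1 to 3, COL3A1 had 16 counts in all, and the list summed to 22.3 to 28.9 CPM in NRG1 libraries and 45.4 to 71.3 CPM in controls. The 10 ciliated cell markers summed to 9.64 to 43.3 CPM in NRG1 libraries and 16.3 to 19.9 CPM in controls. Of these, 5 were tested, and all 5 had a log2 fold change above 0, with a median of 0.69. The groups overlapped in all 5, and 0 had an unadjusted p under 0.05. FOXJ1, not tested, was at 0, 0 and 13 counts in NRG1 libraries and 2, 0 and 6 in controls. The 10 leukocyte markers summed to 15.4 to 35.2 CPM in NRG1 libraries and 25.6 to 36.5 CPM in controls. Among them was CD68, a lysosomal protein of macrophages that other cells also make, at 24.7, 5.61 and 3.69 CPM in NRG1 1 to 3 and at 23.9, 18.9 and 32.0 CPM in control 1 to 3. Its groups overlapped through NRG1 1, and edgeR called it lower without control 3 and NRG1 1 (log2 fold change -2.19; adjusted p 0.00491). Of the 8 endothelial markers 7 were found among the counted genes, without PECAM1. These summed to 2.52 to 4.2 CPM in NRG1 libraries and 2.12 to 2.82 CPM in controls. The part of these cell types in the levels of AKR1B10, ALDH3A1 and ALDH3B1 was not tested, and in bulk RNA more cells of a type and more RNA per cell cannot be told apart. The secretory sums also include the secretoglobin, BPIF and mucin counts of NRG1 3 and control 3. Whether those counts are RNA of other samples was not tested.

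Other genes of the same chemistry and pathways differed in both directions. In each of the 6 lists edgeR called 0 genes, where DESeq2 called 2 NRF2 genes and 1 retinoid gene. Over all genes tested, DESeq2 called 1.36%, and 5.08% were higher and 6.72% lower at an unadjusted edgeR p under 0.05. Of the other aldo-keto reductase genes, 5 of 12 were tested, 0 had an unadjusted p under 0.05, and the median log2 fold change was -0.05. The smallest p-values were those of KCNAB2, a potassium channel subunit with the reductase fold (-0.59), AKR7A2, which reduces succinic semialdehyde (-0.24), and AKR1E2 (0.40). Of the other aldehyde dehydrogenases, 12 of 14 were tested, with a median of 0.17, and by the unadjusted measure 1 (ALDH3B2) was higher and 2 were lower. The lower ones were ALDH4A1, a mitochondrial enzyme of proline breakdown, at 21.1, 27.1 and 24.6 CPM in NRG1 libraries and 38.6, 35 and 31.4 CPM in controls, and ALDH16A1 (-0.39). Of the other carbonyl-reducing and alcohol-oxidising genes, 13 of 19 were tested and 0 were higher and 2 lower by that measure. These were the dicarbonyl reductase DCXR (-0.71) and PTGR1 (-0.59), which reduces unsaturated aldehydes and prostaglandins, while PTGR2 stood at 0.47.

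Most genes in the list of NRF2 and its other targets had negative values. Of 24 genes 23 were tested, 18 of them with a log2 fold change below 0, and the median was -0.32. Over all genes tested, 7705 of 15421 lay below 0. Before adjustment, p was under 0.05 for 1 higher and 6 lower genes, against 5.08% of all genes higher and 6.72% lower. Of the lower genes, OSGIN1 was at 5.64, 5.35 and 16.7 CPM in control 1 to 3. HMOX1 was at 9.27, 6.46 and 20.6 CPM there, and ABCC2 at 1.61, 2.02 and 10.8 CPM, all highest in control 3. Without control 3 and NRG1 1, their edgeR adjusted p-values were 0.135, 0.376 and 0.341. In that comparison edgeR called 1 higher and 4 lower genes of the list, against 5.04% and 4.79% of all genes. KEAP1, which inhibits NRF2, was also among the lower genes (-0.49). The drug transporter ABCC3 was at 39.2, 35.4 and 35.9 CPM in NRG1 1 to 3 and at 65.0, 67.9 and 83.8 CPM in control 1 to 3, without overlap (log2 fold change -0.97, SE 0.17; adjusted p 0.192 by edgeR and 0.000686 by DESeq2). SRXN1, sulfiredoxin, had a log2 fold change of -0.53. UGT1A6, a glucuronosyltransferase that shares exons with its neighbours so that its counts are uncertain, was at 20.3, 37.7 and 29.4 CPM in NRG1 libraries and at 16.0, 13.3 and 12.6 CPM in controls (1.07, SE 0.27; adjusted p 0.318 by edgeR and 0.0370 by DESeq2).

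The retinoid genes, on whose substrates the ALDH1A enzymes act, had 13 of 20 tested, of which 3 were higher and 1 lower before adjustment, and a median of -0.02. STRA6, which takes up vitamin A, was at 2.47, 17.3 and 15 CPM in NRG1 1 to 3 and at 2.58, 0.706 and 1.85 CPM in control 1 to 3. Its log2 fold change was 2.73 (SE 0.70; adjusted p 0.318 by edgeR and 0.0115 by DESeq2), and NRG1 1 lay within the control range. DHRS3, which turns retinal back to retinol, had a log2 fold change of 1.40, and CYP26B1, which degrades retinoic acid, one of -2.07. Among the prostaglandin genes, 11 of 15 were tested, 2 higher and 1 lower by the same measure, with a median of 0.00062. PTGS1, cyclooxygenase-1, had a log2 fold change of -1.09, the transporter SLCO2A1 one of 0.99 and the receptor PTGER2 one of 1.43.

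**Figure D4:**
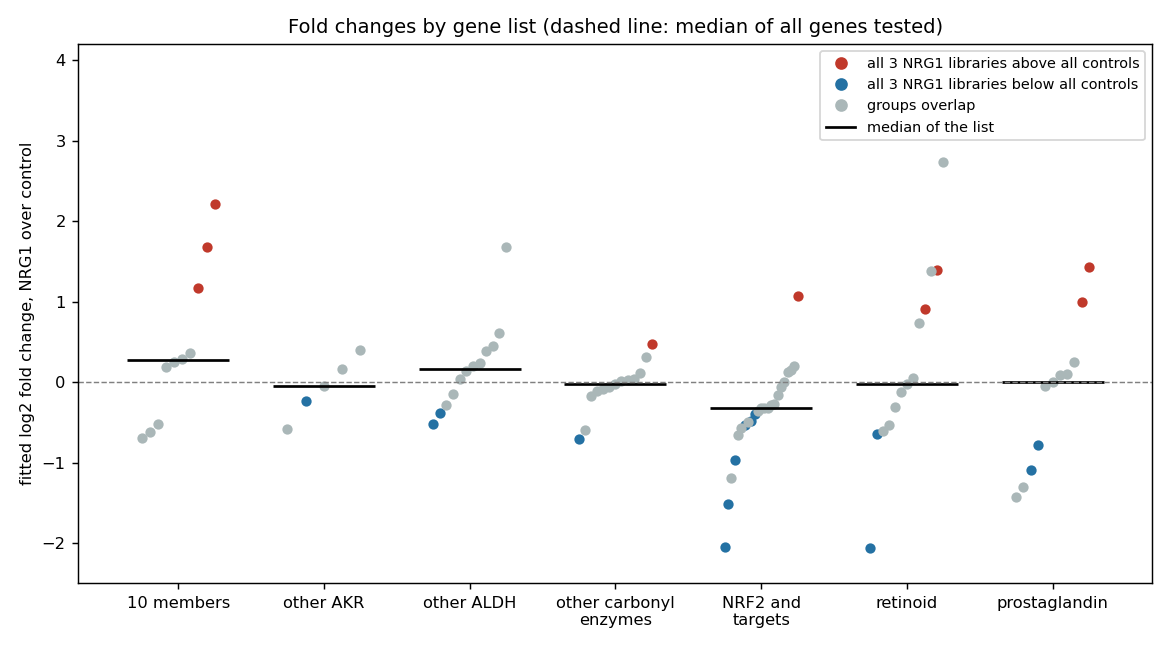
Fitted log2 fold change of NRG1 over control for each tested gene of the members and of 6 other lists, one point per gene, with black lines at the list medians and a dashed line at the median of all genes tested. The members' median is 0.27 and that of the NRF2 list is -0.32.

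The genes whose levels ran most like those of a member over the 6 libraries were found by the root mean square difference of centred log2 CPM among 11832 genes with a mean of at least 5 CPM. For ALDH3A1 these included EHF, COL21A1 and BMF, at distances of 0.30 to 0.32 where the pattern's own SD was 0.94. EHF was at 14.8, 34.5 and 38.3 CPM in NRG1 1 to 3 and at 14.2, 9.79 and 10.9 CPM in control 1 to 3, low in NRG1 1 among the NRG1 libraries as ALDH3A1 was. For ALDH1A3 they were PAN3, KLF10, UBR2 and SLC30A4, at 0.07 to 0.09 against an SD of 0.31, all highest in control 3. For the summed AKR1C genes they were UBASH3B, DHFRP1, SERPINB7 and LAMA3, at 0.10 to 0.17 against an SD of 0.56. LAMA3 was at 459, 245 and 242 CPM in NRG1 libraries and at 535, 368 and 388 CPM in controls, with NRG1 1 between the controls. All these genes share the 6 libraries and their depth, so likeness here is a description.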

How the data were processed

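PolyA RNA was prepared with the TruSeq RNA v2 kit, per the labels' protocols. Per the submitters' processing notes, hg19, RSEM 1.3.0 and STAR 2.5.3a were used, beside MultiQC 0.9 and FastQC 0.11.3, with no roles given. Which annotation was used was not given in the sources. The authors deposited expected counts, which are not whole and not normalized; RSEM shares reads that fit several genes among them. A deposited table of log2 values for 14759 genes, all members included, equalled TMM log2 CPM (prior count 0.25) to within 4.97e-14 and was not tested.

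Groups came from sample titles. Expected counts were rounded; R 4.3.3 and edgeR 4.0.16 gave the main test (quasi-likelihood, TMM, filterByExpr, no covariate), and p-values were adjusted over 15421 genes with a threshold of 0.05. These genes held at least 99.7% of each library. Ratios used counts plus 0.5. Alternatives were DESeq2 1.42.0, other scalings and filters, limma 3.58.1, a replicate block, summed close copies, leaving out libraries and, chosen after seeing the data, edgeR's older dispersion method and the comparison without control 3 and NRG1 3. The tests were tried on simulated data. The members, lists and libraries left out were chosen with earlier results of these data known. Named genes were all members, NRG1, the 3 smallest p-values per enzyme or pathway list and the 4 nearest patterns; 1 gene that met this rule is not reported here. Cell type markers named beside them, and OSGIN1, HMOX1, ABCC2 and KEAP1 of the NRF2 list, were chosen after their values were seen. Coding sequences came from GENCODE 29, promoters from RefSeq GRCh38.p14, and no protein sequences were used.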

Additional observations from a re-analysis of the deposited data

How the results depend on the processing

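Of 257 refitted log2 fold changes of members, NRG1 and sums of copies, 241 kept their direction and their side of the threshold, 14 passed it and 2 turned round: ALDH1A1 (0.29) was -0.041 without NRG1 3 and ran from there to 0.74 with 1 library left out, and ALDH1A3 (0.19) was -0.000101 without control 2 and ran to 0.49. All 14 that passed came from DESeq2 or from the comparison without control 3 and NRG1 1, and the cause was not tested. AKR1B10 ran from 1.80 to 2.77, ALDH3A1 from 1.42 to 2.16 and ALDH3B1 from 0.88 to 1.45. These 3 genes had an unadjusted p under 0.05 in each of these settings. AKR1C2 ran from -1.51 to -0.11, and was -1.28 without NRG1 1.

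The count of all genes called, 1 in the main comparison, was 209 by DESeq2, 21 with no low-count filter, 2 by each of limma-trend on log2(CPM + 1), limma-trend on log2(CPM + 0.25), limma-voom and the replicate block, 1515 without control 3 and NRG1 1, and 1 to 37 with 1 library left out, 37 being without NRG1 1. Members called were 3 by DESeq2, 6 without control 3 and NRG1 1, and 0 under the replicate block. Deviations of same-numbered libraries correlated at 0.02, 0.12 and -0.08, within the range of -0.18 to 0.16 of differently numbered ones. With 3 libraries per group, and control 3 and NRG1 1 far from the rest, these values cannot decide whether the numbers pair the libraries.

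Ratios whose main difference was near 0 turned sign. AKR1C1 to AKR1C2 (0.05) was -0.22 to 0.45 with 1 library left out and -0.20 without control 3 and NRG1 3. AKR1C3 to AKR1C1 (-0.01) was -0.40 to 0.29, 0.39 without control 3 and NRG1 1, and 0.34 without control 3 and NRG1 3. ALDH1A3 to ALDH1A1 (-0.02) was -0.66 to 0.34, 0.45 and 0.39 under the same settings. ALDH1A1, AKR1C3 and AKR1B10 had under 100 expected counts in every library, so counting error adds to their spread; its share was not tested.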
